A study of Homo sapiens with 3 samples.

Results

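The RAB GTPases and the TBC1D regulators were taken as all probe sets of the array whose listed gene symbols are RAB followed by a number, or TBC1D followed by a number, each with at most 1 further letter. A probe set listed for several genes was kept where every one of them followed this pattern. This gave 212 of the 54675 probe sets, 142 of them for RAB and 70 for TBC1D genes. Of these, 207 stand for 1 gene and 5 for several near-identical genes, so that 89 genes (57 RAB and 32 TBC1D genes) of the 19775 genes on the array had a probe set of their own. The pattern also takes in the pseudogene symbols TBC1D27P and TBC1D29P.

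RAB proteins are small GTPases that mark the membranes of the secretory and endocytic pathways. Exchange factors load them with GTP at a membrane, effectors bind the loaded form to move, tether or fuse vesicles, and GTPase-activating proteins with a TBC domain, among them the TBC1D family, switch them off. Some RABs work on routes that every cell has, whereas others serve regulated secretion in neurons, gland cells, pigment cells or leukocytes.

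The arrays measured basal expression in unstressed HEK-293T cells (ATCC CRL-11268), a human embryonic kidney line with the SV40 T-antigen in a temperature sensitive form per the labels, to learn which cDNAs of a screen for heat shock activators are expressed there. Total RNA of 3 cultures grown in DMEM with 10% serum was hybridised to Affymetrix U133 Plus 2.0 arrays, 1 array for each culture. The cultures are called low-seeded 48 h (375000 cells seeded, harvested after 48 h, RNA integrity number 9.6), 24 h (1000000 cells, 24 h, 9.5) and high-seeded 48 h (750000 cells, 48 h, 10.0), and 3 signals in a row below always stand in this order. All 3 belong to 1 group, and nothing says whether they were separate passages of the line, so the spread between them may be technical.

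A signal is the MAS5 intensity of a probe set on a linear scale. The threshold for background was set on each array at the 95th percentile over 264 probe sets for genes of other tissues and for odorant and bitter taste receptors, and came to 117, 102 and 128. Only probe sets over the threshold in each of the 3 cultures are called above background here, and a gene counts as above background through any probe set of its own that passed. The values of a gene are those of its brightest probe set, as mean ± SD over the 3 arrays where no single signals are given. They are not set against those of other genes, since probe sets differ in how strongly they bind. The RNA came from whole cultures, so a low level in every cell and a higher level in a few cells cannot be told apart. Correlations of log2 signals over all probe sets lay between 0.903 and 0.908 across pairs of arrays. Most of these probe sets were not above background, so the correlations say little about the expressed genes.

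Most RAB and TBC1D genes were expressed above background in HEK-293T cells. Of the 212 probe sets, 123 (58.0%) were above background, against 36.9% of all probe sets on the array. By gene the count was 64 of 89 (71.9%), with 39 of 57 RAB genes (68.4%) and 25 of 32 TBC1D genes (78.1%), against 50.2% of all genes. Above background the probe sets of both families varied little, with a median SD between arrays of 0.16 on the log2 scale, against 0.15 for all probe sets above background. Below it the median SD was 0.84, so single low signals carry little information.

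The split between ubiquitous and tissue-restricted members was wide. Members were sorted into these classes by general knowledge of where they are expressed, and 33 genes without a clear place were left unclassified. Among the ubiquitous genes 34 of 37 (91.9%) were above background, made up of 22 of 25 RAB genes and 12 of 12 TBC1D genes. Among the tissue-restricted genes 5 of 19 (26.3%) were above background, made up of 5 of 15 RAB genes and 0 of 4 TBC1D genes. The latter include the pseudogene symbol TBC1D29P, whereas TBC1D27P was left unclassified. The unclassified genes lay between these shares, with 25 of 33 (75.8%) above. These shares describe lists that were drawn up with earlier results of the same arrays known, and no test was made of the difference between them. RAB19, RAB44 and TBC1D26, also named as restricted, had no probe set under the pattern and were not analysed here.

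**Figure D1:**
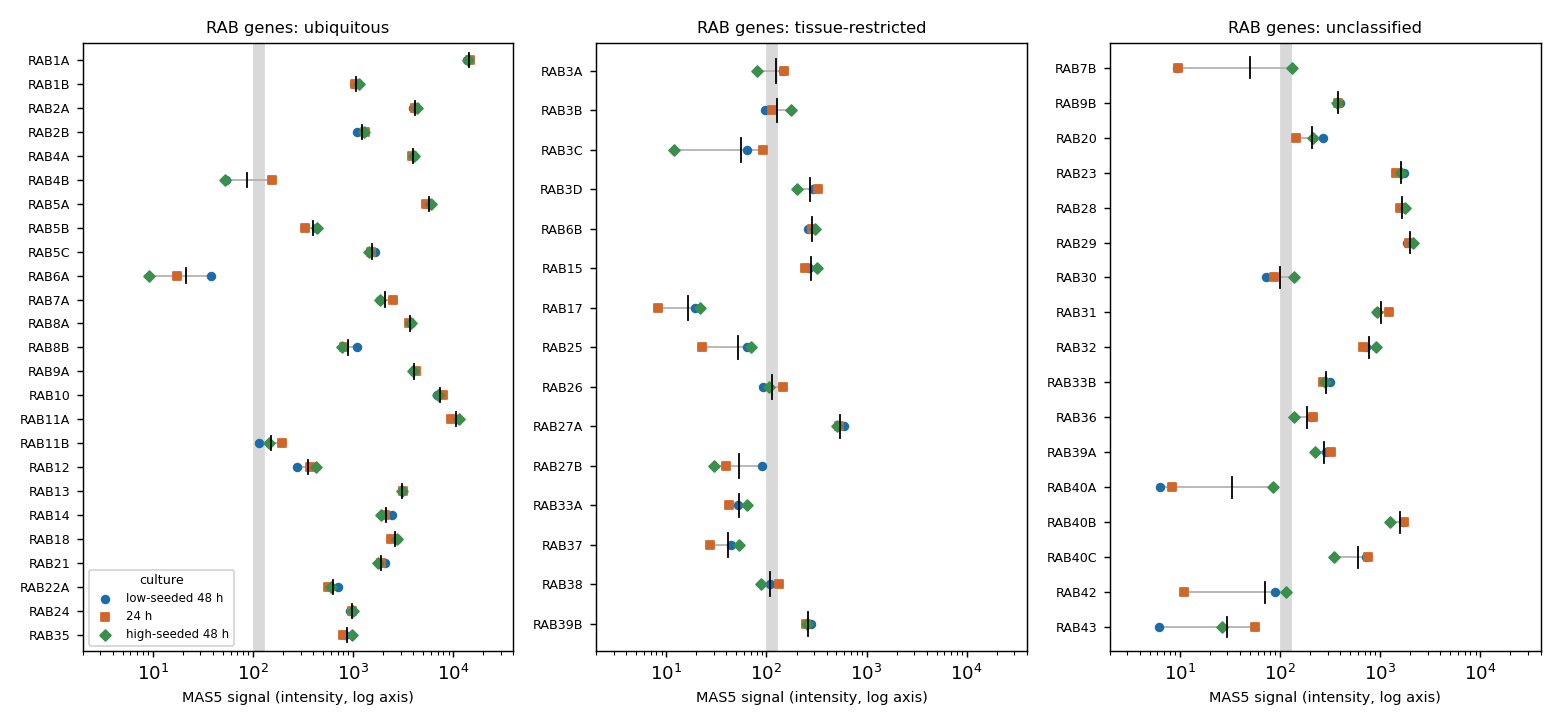
Signals of the brightest probe set of each of the 57 RAB genes (x axis, MAS5 intensity, log scale; y axis, gene), in 3 panels for ubiquitous, tissue-restricted and unclassified genes. Each symbol is 1 culture, the black tick is the mean of the 3 cultures, the grey line joins the lowest and highest culture, and the grey band spans the thresholds from 102 to 128; 22 of 25 ubiquitous but 5 of 15 restricted genes lie to its right with all 3 symbols above their own threshold.

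The restricted genes above background were RAB3D, RAB6B, RAB15, RAB27A and RAB39B. RAB3D, which acts on secretory granules of exocrine and other gland cells, gave 293, 329.9 and 204, all above the threshold, whereas its other probe set (mean 87.7) was not called. RAB6B, the form of RAB6 known mainly from neurons, gave 261, 287 and 306 with 2 of 3 probe sets above background. Both genes exceeded the threshold in every culture, RAB3D by least in the high-seeded 48 h culture. RAB15, a neuronal RAB of early and recycling endosomes, gave 269, 242 and 318, and both of its probe sets were above background. RAB39B, a neuronal RAB whose loss causes intellectual disability, gave 279, 246 and 252, again with both probe sets above. RAB27A, which docks melanosomes and cytotoxic granules at the plasma membrane, gave 594, 529.9 and 503, with 3 of 5 probe sets above, all 5 of them of kinds that can be shared between transcripts or genes. None of these cultures fell under its threshold, the nearest lying at 3.93 times the threshold in the high-seeded 48 h culture.

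The restricted genes not above background covered several specialised routes. RAB3A, the main RAB of synaptic vesicles, gave 147, 149 and 80.5, over the threshold in the low-seeded 48 h and 24 h cultures and under it in the high-seeded 48 h culture. RAB3B gave 97.5, 113 and 176 and RAB3C 63.8, 92.6 and 12.1, both related synaptic vesicle RABs. Each of the 3 genes thus lacked a probe set over the threshold on all arrays, and RAB3D was the only one of the 4 RAB3 genes called. RAB26 (91.6, 148 and 105), which acts on secretory granules, and RAB38 (108, 132.7 and 88.6), which acts in melanosome formation, exceeded the threshold in the 24 h culture alone. RAB17, an epithelial RAB, gave 19.3, 8.20 and 21.99 and RAB37, a granule RAB, 44.4, 27.2 and 53.7. RAB27B gave 89.7, 39.1 and 30.3 and RAB33A 51.9, 42.6 and 64.3, all under the threshold. The 4 restricted TBC1D genes were low too. TBC1D10C, a leukocyte protein, gave 10.9, 39.6 and 16.7, and TBC1D21, a testis protein, 27.2, 32.00 and 88.6. TBC1D28 gave 8.12, 10.1 and 9.50 and TBC1D29P 54.5, 17.4 and 25.4, every signal lying under its threshold.

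Markers of melanocytes, leukocytes, exocrine glands and neurons, from which several of these restricted genes are known, were mostly not above background, whereas 50.2% of all genes were above it. None of 4 measured melanocyte, 5 leukocyte and 3 exocrine gland markers was called, and of 5 neuronal markers only SYT1, the calcium sensor of synaptic vesicles, was, with signals of 368, 372 and 349.9. The kidney label was borne out in part: of 4 measured markers of embryonic kidney PAX8 (403, 561 and 271) and EYA1 (345, 297 and 438) were above background and PAX2 (85.5, 129 and 146) and LHX1 (25.7, 17.5 and 65.96) were not. Of 5 epithelial markers CDH1, KRT8 and KRT18 (60.0%) were above background and EPCAM and KRT19 were not. RAB17 and RAB25, known from epithelium, were nevertheless not called. What part such cell identity has in the calls of the RAB genes was not tested.

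Of 23 paralog groups with several measured members, 12 had every member above background and 11 had some above and others not. These counts are to be read beside the 71.9% of member genes and 50.2% of all genes above background. With such shares, groups of both kinds would also arise among unrelated genes. Whether paralogs share their calls more than other genes was not tested. The first kind made up 7 of 16 RAB and 5 of 7 TBC1D groups. The mixed groups include some in which a ubiquitous gene was the one not called. RAB4B was not called beside RAB4A, and RAB11B in the RAB11 group reached 0.98 times the threshold in the low-seeded 48 h culture. RAB6 counts as mixed through the single probe set of RAB6A alone, whereas the probe sets that RAB6A shares with RAB6C or RAB6D were all above background. RAB11A, which drives slow recycling through the pericentriolar endosome, gave 11039.9, 9591 and 11442, each far above its threshold. Its epithelial relative RAB25 gave 63.9, 22.96 and 70.7, each under the threshold. TBC1D10C likewise lay under the threshold while TBC1D10B, its ubiquitous relative, gave 489, 708 and 583. RAB32, which delivers enzymes to lysosome-related organelles in many cells, gave 729, 683 and 904 while RAB38 was not called. RAB33B, a Golgi RAB that also acts in autophagy, gave 315, 270.2 and 283 while RAB33A was not called. The groups with every measured member above background were RAB1, RAB2, RAB5, RAB8, RAB9, RAB22, RAB39, TBC1D1, TBC1D9, TBC1D12, TBC1D15 and TBC1D22.

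The promoters of a pair of RAB11 and a pair of RAB3 genes are shown here, since in each pair 1 gene was above background and the other was not. The windows run from 250 bases before to 50 bases after the start of the gene (RefSeq, GRCh38.p14) and read 5′ to 3′ on the strand of the gene, with each CG dinucleotide in capitals. RAB11A lies at chr15:65869241-65869540 on the plus strand and RAB25 at chr1:156060910-156061209 on the plus strand. RAB3D lies at chr19:11339608-11339907 and RAB3A at chr19:18203993-18204292, both on the minus strand.
RAB11A: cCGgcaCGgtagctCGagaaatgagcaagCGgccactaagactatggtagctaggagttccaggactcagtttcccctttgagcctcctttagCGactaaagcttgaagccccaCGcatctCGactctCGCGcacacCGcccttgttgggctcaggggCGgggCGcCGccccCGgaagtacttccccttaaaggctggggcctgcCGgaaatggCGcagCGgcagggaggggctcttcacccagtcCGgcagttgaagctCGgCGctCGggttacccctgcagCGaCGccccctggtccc
RAB25: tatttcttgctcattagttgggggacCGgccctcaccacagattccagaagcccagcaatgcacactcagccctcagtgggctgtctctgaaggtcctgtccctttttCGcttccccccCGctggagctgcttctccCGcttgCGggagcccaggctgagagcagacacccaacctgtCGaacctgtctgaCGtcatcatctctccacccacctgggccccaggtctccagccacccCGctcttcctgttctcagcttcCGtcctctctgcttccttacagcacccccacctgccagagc
RAB3D: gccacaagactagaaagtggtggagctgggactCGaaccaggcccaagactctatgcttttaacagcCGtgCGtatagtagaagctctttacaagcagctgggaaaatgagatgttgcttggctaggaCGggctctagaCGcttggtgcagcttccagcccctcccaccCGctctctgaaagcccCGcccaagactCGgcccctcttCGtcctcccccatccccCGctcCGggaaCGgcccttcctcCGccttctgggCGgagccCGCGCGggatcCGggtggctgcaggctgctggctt
RAB3A: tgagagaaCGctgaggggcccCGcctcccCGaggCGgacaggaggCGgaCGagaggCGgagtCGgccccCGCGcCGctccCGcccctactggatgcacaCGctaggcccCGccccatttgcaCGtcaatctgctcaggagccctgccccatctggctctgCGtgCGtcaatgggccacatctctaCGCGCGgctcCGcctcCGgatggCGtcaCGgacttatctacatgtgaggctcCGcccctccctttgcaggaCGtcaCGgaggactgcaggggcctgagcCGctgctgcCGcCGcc
The motif searched was CG, which reads the same on both strands. The RAB11A window held 23 of them, a number reached by 35.8% of all 35116 windows, and the RAB25 window held 9, reached by 58.4%. In the other pair the order was the opposite, with 18 in the window of RAB3D, which was called (reached by 44.5% of windows), and 30 in that of RAB3A, which was not (reached by 22.4%). The order thus differed between the 2 pairs, and RAB3A missed the threshold only in the high-seeded 48 h culture. Both pairs are picked examples out of 9 RAB groups with mixed calls and do not stand for the others. Whether the number of CG dinucleotides bears on the call was not tested. Windows were found for 33 of 37 ubiquitous but only 11 of 19 restricted genes, so a comparison of the classes was void.

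The 3 ubiquitous genes not above background were RAB4B, RAB6A and RAB11B. RAB4B, a RAB of fast recycling, gave 53.4, 156 and 52.8, over the threshold only in the 24 h culture. RAB11B gave 115, 193 and 146 and missed the threshold only in the low-seeded 48 h culture, where it reached 0.98 times the threshold. RAB6A, which moves vesicles from and within the Golgi, has a single probe set of its own, with 38.2, 17.6 and 9.16. However, 4 further probe sets are listed for RAB6A together with its near copies RAB6C or RAB6D, and all 4 were above background, the brightest with 4233, 4275 and 3668 and 3636, 3258 and 3075. These signals lay far over the thresholds in every culture, but which of the copies they came from could not be told from the arrays.

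By role, 7 of 11 measured RABs of the route from the endoplasmic reticulum through the Golgi (63.6%) were above background, against 68.4% of all RAB genes and 50.2% of all genes. RAB1A, needed for transport out of the endoplasmic reticulum, gave 13856, 14858 and 14171, and its paralog RAB1B 1073 ± 75.6. RAB2A and RAB2B, of the intermediate compartment, gave 4146 ± 202 and 1235 ± 129. RAB18, of the endoplasmic reticulum and lipid droplets, gave 2631 ± 202. RAB6B and RAB33B, given above, complete those called. The Golgi RABs RAB30 (99.2 ± 33.9) and RAB43 (29.7 ± 25.3) were not above background, nor were RAB33A and the RAB6A probe set already described.

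Early endosomes showed 8 of 9 RABs (88.9%) above background, RAB4B being the exception, against 68.4% of all RAB genes and 50.2% of all genes. RAB5A, which controls fusion of early endosomes, gave 5657, 5376 and 6011, with RAB5B at 398 ± 59.9 and RAB5C at 1538 ± 103. RAB4A, of fast recycling, gave 3969 ± 98.3. All of these were above the threshold on each array. RAB21, which carries integrins, gave 1914 ± 149, RAB22A 627 ± 71.8 and its relative RAB31 1029 ± 166. RAB20, known from phagosomes and hypoxia, gave 269.8, 146 and 213, lowest in the 24 h culture, where it was 1.42 times the threshold.

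Of 7 RABs of the recycling route 4 (57.1%) were above background, near the 50.2% of all genes and below the 68.4% of all RAB genes. Besides RAB11A and RAB15 these were RAB14 (2141 ± 265), which acts between the Golgi and endosomes, and RAB35 (869 ± 99.9), which returns cargo to the plasma membrane. On the late route 4 of 5 (80.0%) were above, to be read beside the same shares and on few genes. RAB7A, which drives fusion with lysosomes, gave 1868, 2519 and 1880.2, and RAB9A, which returns receptors from late endosomes to the Golgi, 4089.5 ± 172. RAB9B gave 382 ± 12.3 and RAB24, linked to autophagy, 975 ± 30.5. RAB7B was not above background, with 9.42, 9.54 and 132.7, over the threshold only in the high-seeded 48 h culture. Its mean therefore rests on 1 array.

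In exocytosis 7 of 13 RABs (53.8%) were above background, against 50.2% of all genes and 68.4% of the RAB genes. RAB8A (3739.6 ± 127) and RAB8B (899 ± 179), of transport to the plasma membrane and cilium, were called, as were RAB10 (7304 ± 523), which also carries glucose transporters, RAB13 (3085 ± 31.8), of tight junctions, and RAB12 (359 ± 77.2). RAB3D and RAB27A, given above, were also called, and RAB3A, RAB3B, RAB3C, RAB26, RAB27B and RAB37 were not. The 3 measured RABs of the cilium list were all above background, a list too short to set against these shares. RAB23, a negative regulator of hedgehog signalling, gave 1604 ± 159 and RAB28 1658 ± 97.4. RAB36 gave 204, 214 and 137 from a single probe set. It only just passed in the high-seeded 48 h culture, at 1.07 times the threshold. RAB34, the remaining one of that list, shares its probe sets with another symbol and was not analysed here.

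Of the unclassified RABs without a role on these lists, RAB29, which acts with the kinase LRRK2 at lysosomes and the Golgi, gave 1992 ± 127, RAB39A 279 ± 48.5, RAB40B 1565 ± 255 and RAB40C 607 ± 227. RAB40 proteins carry a SOCS box and recruit a ubiquitin ligase. RAB40A (6.33, 8.45 and 84.98) and RAB42 (88.98, 11.00 and 115) were not above background.

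The TBC1D genes above background held regulators of several of these routes. TBC1D1 and TBC1D4, which restrain the RABs of glucose transporter vesicles until they are phosphorylated, gave 329.6, 306 and 287 and 2688, 2193 and 2559. TBC1D5, which acts on RAB7 beside retromer, gave 431, 407 and 483. TBC1D7 gave 2613, 2470.2 and 2609 and is known as a subunit of the TSC complex that restrains mTORC1. All of these signals were over the threshold in each culture. TBC1D2B gave 562, 495 and 543, whereas TBC1D2, which acts on RAB7, was not above background. TBC1D8B gave 167, 169 and 213, TBC1D9 493, 501 and 453 and TBC1D9B 1323, 1309 and 1198. TBC1D10A and TBC1D10B, which act on RAB27 and RAB35, gave 403, 454 and 592 and, as given above, the values of TBC1D10B. None of these signals fell under its threshold.

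The further TBC1D genes above background were TBC1D12 to TBC1D17, TBC1D19, TBC1D20, TBC1D22A, TBC1D22B, TBC1D23, TBC1D24, TBC1D25, TBC1D31 and TBC1D32. They include TBC1D15 and TBC1D17, which act on RAB7, TBC1D20, which acts on RAB1 and RAB18, and TBC1D14, which binds RAB11 and restrains autophagy. TBC1D17 gave 121, 165 and 179.6 and only just passed in the low-seeded 48 h culture, at 1.03 times the threshold. Besides the restricted genes, TBC1D2, TBC1D27P and TBC1D30 were not called, with TBC1D30 at 94.96, 76.99 and 94.1. The 10 near-identical TBC1D3 genes, a primate family, share 1 probe set, which gave 152, 214 and 201 and was above background without showing which copies it stands for.

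**Figure D2:**
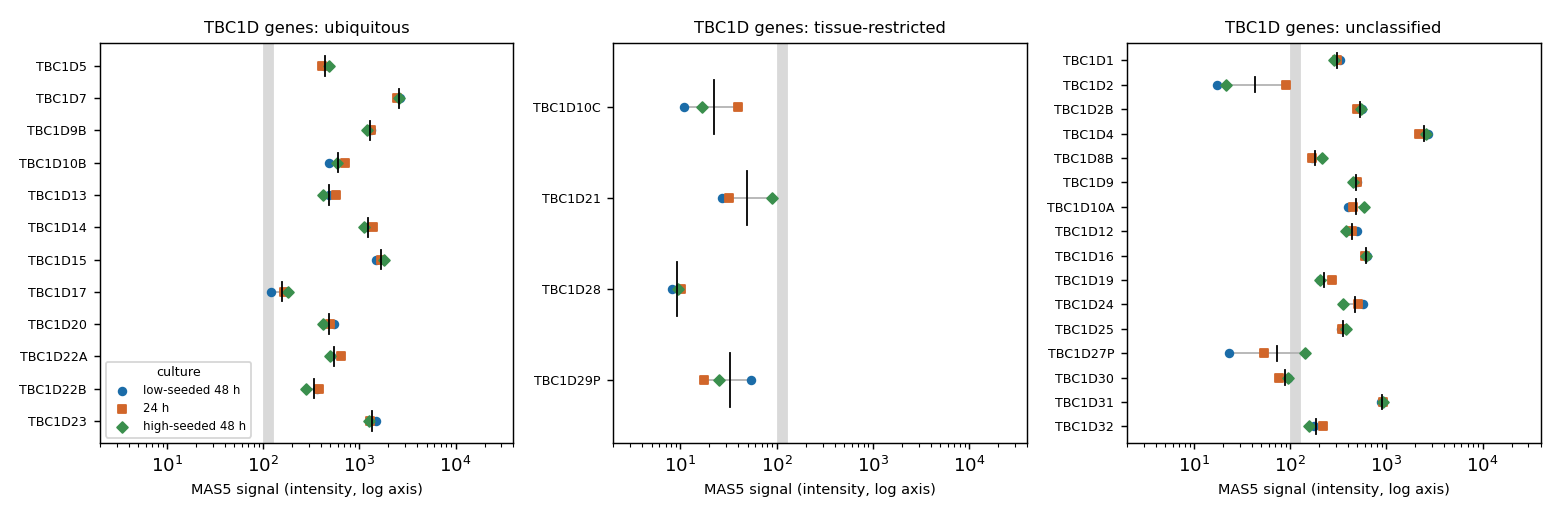
Signals of the brightest probe set of each of the 32 TBC1D genes (x axis, MAS5 intensity, log scale; y axis, gene), in panels for ubiquitous, tissue-restricted and unclassified genes. Symbols are cultures, black ticks the means of the 3 cultures, grey lines the range and the grey band the thresholds from 102 to 128; all 12 ubiquitous genes are above background and all 4 restricted genes lie to the left of the band.

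Probe sets of the same gene often differed in their call. Of the 56 member genes with several probe sets, 19 had all of them above background, 29 some of them and 8 none, so that 51.8% were mixed. Of the 10523 such genes on the array, 2594 had all above, 4241 some (40.3%) and 3688 none. A gene with none above cannot be mixed, and such genes were rarer among the members. These shares therefore do not show more disagreement in the members than elsewhere. RAB1A had 3 of 4 probe sets above background, and the brightest (mean 14295) and dimmest (mean 12.5) differed by 10.16 on the log2 scale. RAB5A had 2 of 3, with means from 9.05 to 5681, and RAB40B 2 of 3, with means from 10.7 to 1565. A gene judged from its dimmest probe set alone would thus have been missed in each of these cases. RAB18 had 4 of 6 above background (means from 24.3 to 2631), RAB21 3 of 4 (20.02 to 1914) and RAB7A 3 of 7 (27.4 to 2089). TBC1D1 had 1 of 5 (4.84 to 307) and TBC1D7 1 of 2 (44.2 to 2564). The call of TBC1D7 and that of TBC1D1 therefore rest on 1 probe set each. By the ending of the probe set name, 70.0% of the 60 member probe sets marked as shared between transcripts (_s_at) were above background, against 50.4% of the 135 plain ones (_at). The array as a whole showed 60.2% and 29.7%. RAB12, RAB32, RAB40C, TBC1D10A and TBC1D2B were called by probe sets marked _s_at or _x_at alone, while their plain ones were not above background.

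**Figure D3:**
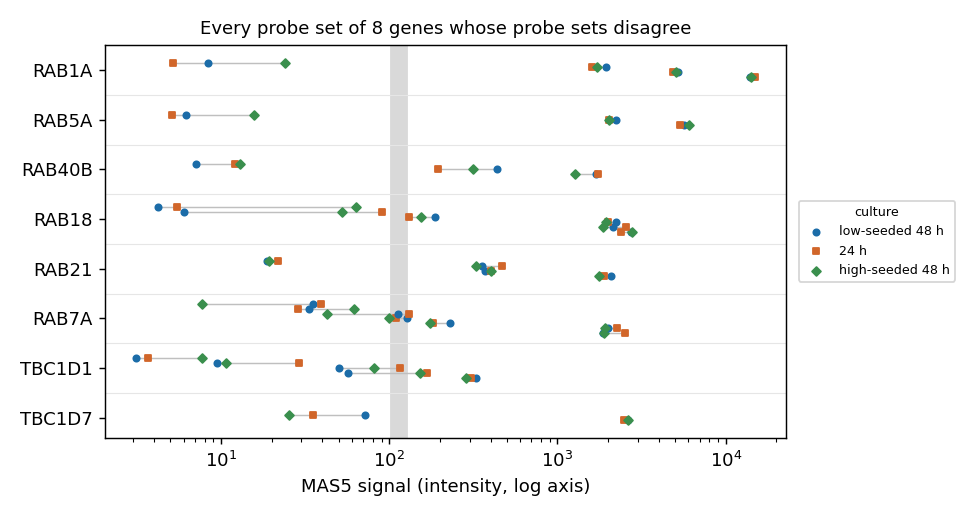
Signals of every probe set of the 8 genes whose probe sets disagree in their call with the widest spread (x axis, MAS5 intensity, log scale; y axis, gene). Each row of symbols within a gene is 1 probe set with its 3 cultures, and the grey band spans the thresholds from 102 to 128; RAB1A, RAB5A and RAB40B each have a probe set far to the left of the band beside others far to its right.

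Other genes of the RAB cycle were above background in 63 of 86 cases (73.3%), near the share of the RAB and TBC1D genes themselves. All 4 measured genes of RAB prenylation and membrane extraction were above. GDI2, which extracts RABs from membranes, gave 15137, 14514 and 15818, and RABGGTB, the beta subunit of the prenylating enzyme, 7097, 7813 and 7361. The escort protein CHML gave 4126, 4578 and 3582 and RABGGTA, the other subunit of the enzyme, 319, 455 and 294. Of 29 exchange factors 21 were above, among them GAPVD1 (2808, 2221 and 2590.5), for RAB5, and MON1A (819, 806 and 842), for RAB7. Of 12 other RAB GTPase-activating proteins 9 were above, among them RAB3GAP1 (2063, 2137 and 1765), whereas RAB3GAP2, its partner, gave 7.70, 12.5 and 56.8 from a single probe set and was not.

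Effectors were above background in 29 of 41 cases. EEA1 and RABEP1, which bind RAB5, gave 933, 1022 and 819 and 4739.8, 4031 and 4064, and the 5 measured RAB11FIP genes, which bind RAB11, were all above background. Of the 8 RAB27 effectors on the list 2 were above background, and of the 3 RAB3 effectors 0 were. The shares were 70.7% for all listed effectors and 50.2% for all genes. Both groups are small and were picked out of an undivided list of effectors for this description, and no test was made. EXPH5 (518, 409.7 and 579) and SYTL5 (149, 428 and 179), which bind RAB27, were those called, with SYTL5 highest in the 24 h culture. MLPH, which links RAB27A to myosin on melanosomes, gave 122, 124 and 66.8. It missed the threshold only in the high-seeded 48 h culture and was not called. Nor were MYRIP, SYTL1, SYTL2, SYTL3 and SYTL4, also RAB27 effectors. RIMS1 (44.4, 48.3 and 30.1), RIMS2 (40.96, 31.9 and 45.6) and RPH3A (79.7, 67.1 and 9.16), which bind RAB3 on synaptic vesicles, were not called, all of these signals lying under their thresholds.

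Differences between the cultures were tested by limma, setting the 24 h culture against the pair harvested at 48 h, which also differed from it in seeding. No RAB or TBC1D probe set was called at an adjusted p under 0.05. Of the 90 RAB and 43 TBC1D probe sets bright enough for the test, 0 were higher and 0 lower, against 54 (0.246%) higher and 16 (0.0729%) lower among all 21956 tested (4 and 5 after scaling the arrays to equal medians). Counts were 5 higher and 3 lower at an unadjusted p under 0.05 (6.02% of the members, against 9.51% of all). The median log2 difference of the members was 0.025, against 0.0045 for all. The 24 h side is a single array and the fit has 1 residual degree of freedom. Harvest time, seeding and batch cannot be told apart.

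RAB40C had the highest log2 difference, with 717, 757 and 346 and a difference of 0.58 (SE 0.29, limma adjusted p = 0.558). Its high-seeded 48 h culture alone was low. RAB29 followed with 218, 191 and 67.8 for a probe set other than its brightest and a difference of 0.55, although its 24 h signal lay between the 48 h signals. RAB11B gave a difference of 0.51 from the signals printed above. At the other end RAB40B had 436, 196 and 313 for its second probe set, the 24 h culture being lowest, with a difference of -0.85 (SE 0.31, limma adjusted p = 0.357). The brightest probe set of RAB40B did not show this order. RAB20 had a difference of -0.65, its 24 h culture being lowest, and RAB28 one of -0.48 for a probe set with 319, 209 and 281. The smallest adjusted p among the members was 0.168 (limma), for the RAB7A probe set whose signals are given above, with a difference of 0.42 (SE 0.12). RAB31, singled out after its values were seen, had positive differences for all 3 of its probe sets, at 0.42, 0.38 and 0.35, none of which passed the test.

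**Figure D4:**
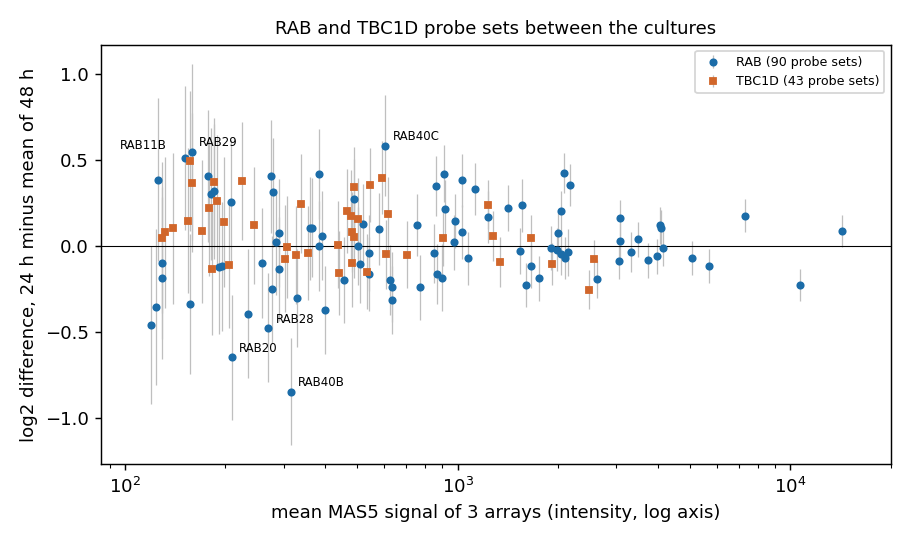
Log2 difference of the 24 h culture from the mean of the 48 h cultures (y axis) against the mean signal (x axis, MAS5 intensity, log scale) for the 90 RAB and 43 TBC1D probe sets tested. Bars are standard errors from limma, and the 3 highest and 3 lowest differences are named; they lie between 0.51 and 0.58 and between -0.85 and -0.48, at signals where the bars are wide, and no probe set was called.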

How the data were processed

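The authors hybridised total RNA of 3 cultures to the arrays and normalised the data by MAS5, and the submitters' processing notes name GCOS 1.0. The deposited values are an intensity on a linear scale, with a mean after trimming 2% at each end of 499.9 on each of the 3 arrays. The study's absent/present calls were not used here. Gene symbols of the probe sets are those of the platform annotation.

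The reference for background comprised 264 probe sets (184 genes), 127 of them for odorant and bitter taste receptors, and 7 of the 264 were themselves above background (CRYGD, KRT10, OLIG2, TNNI3 and TNNT3). The members and lists were chosen with earlier results of these data known. Genes named with values were the restricted members, the ubiquitous members not above background, those on the role lists, the first 10 TBC1D genes called, the 8 widest disagreements between probe sets and the 3 largest and 3 smallest differences between cultures. Chosen outside this rule, after their values were seen, were RAB39A, RAB40A, RAB42, TBC1D17, TBC1D30 and the TBC1D3 probe set among the levels, RAB7A and RAB31 among the differences, and the examples of partner and marker genes.

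For the comparison of cultures, limma 3.58.1 (R 4.3.3) was fitted with a mean-variance trend to log2(signal + 20.41), where 20.41 is the median signal of the reference. Only probe sets with a mean on the log2 scale over the log2 of the mean threshold (115.8) entered, with Benjamini-Hochberg adjustment over all of them. The added value makes differences at low signals look smaller than they are. P-values rest only on the spread between the pair of arrays harvested at 48 h, which differed in seeding, with information shared across probe sets. The 3 arrays limit the precision. The test was also tried on simulated data, but no statement here rests on that trial. Alternatives were other percentiles and references, 2 arrays sufficing, fewer kinds of probe set, other normalizations, another added value, no filter, no trend and each array left out in turn.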

Additional observations from a re-analysis of the deposited data

How the results depend on the processing

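The contrast between ubiquitous and restricted members kept its direction under every alternative run. All alternatives reused the same arrays and the same lists, which were drawn up with earlier results of these arrays known. The kept direction is therefore no independent support for the contrast. With the 90th percentile as threshold, 8 restricted genes were above background. With the 99th percentile, which is set by KRT10, the counts were 29 member probe sets, 14 RAB genes, 3 TBC1D genes, 15 ubiquitous, 0 restricted and 13 partner genes, against 5731 of all probe sets and 3587 of all genes. With KRT10 left out of the reference, an alternative chosen after seeing the data, the 99th percentile gave 97, 35, 21, 33, 4, 53, 16003 and 8492. Without _s_at and _x_at probe sets, 70 member probe sets and 11506 of all were above background. By gene these were 29 RAB, 21 TBC1D, 28 ubiquitous, 4 restricted and 52 partner genes, against 7312 of all genes. Some genes, such as RAB27A, have no other kind of probe set and drop out.

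Leaving out each array in turn gave 126 to 130 member probe sets, 39 to 41 RAB genes, 25 TBC1D genes, 34 to 35 ubiquitous, 5 to 7 restricted and 64 to 65 partner genes, 20504 to 21130 of all probe sets and 10048 to 10273 of all genes. RAB11B was called without the low-seeded 48 h array, RAB3A without the high-seeded 48 h array and RAB3B without either. With the 90th percentile RAB11B, RAB26, RAB38, RAB3B and TBC1D30 were gained.

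The median log2 difference of the members between 24 h and 48 h was -0.0051 with no filter and 0.078 after scaling to equal medians, which moved the median of all probe sets to 0.056. Without a 48 h array it was 0.018 to 0.021, with no residual degree of freedom for a test. No alternative with a test called a member. Without the trend 0 of all probe sets were called (limma), with 733 higher and 625 lower at an unadjusted p under 0.05. No paired analysis was possible because the labels form a single group.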
